A study of Mus musculus with 12 samples.

Results

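The mouse paraoxonase family consists of 3 genes, Pon1, Pon2 and Pon3, and all 3 were followed in each of the 12 RNA-seq samples of the study. They were taken by name from the 49585 genes of the count files. The samples were hematopoietic stem cells (HSCs) sorted from mouse bone marrow as Lin-, Sca1+, ckit+, CD135- and CD150+, a gate that the labels call LT-HSCs (long-term HSCs) and the methods of the study describe as LT-HSCs together with MPP2 cells, an early multipotent progenitor. The 2 groups were 6 wild type (WT) mice and 6 Pon2-/- mice, all of the C57BL/6J background, aged 10 to 14 weeks and untreated. Pon2-/- mice carry a gene trap in Pon2 intron 2. The trap vector holds the β-geo reporter between loxP sites, interrupts the gene in every cell of the body, and leaves all exons of Pon2 in the genome. WT mice came from a commercial breeder and were not stated to be littermates. The methods of the study do not describe how the Pon2-/- line was bred to the C57BL/6J background. Strain differences between the groups were not tested. From every mouse 8 wells of 10 cells were sorted for Smart-seq2, a full-length cDNA method for very few cells, and each mouse has 1 table of counts. How the wells were joined was not stated.

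Paraoxonases are calcium-dependent lactonases, enzymes that open ring-shaped esters. PON1 and PON3 are made mainly by the liver, and PON1 travels in blood on high-density lipoprotein (HDL), where it protects lipids from oxidation. PON2 stays inside cells, in membranes of the endoplasmic reticulum and mitochondria, and lowers the release of superoxide. In HSCs, levels of reactive oxygen species are tied to quiescence and differentiation, so the residual Pon2 mRNA of the mutant and the level of its relatives bear on how far the model lacks paraoxonase transcripts.

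The 3 genes lie side by side on chromosome 6, minus strand (GRCm38, GENCODE release M21). Pon1 (ENSMUSG00000002588) spans 5168090 to 5193946, Pon3 (ENSMUSG00000029759) spans 5220852 to 5256286, and Pon2 (ENSMUSG00000032667) spans 5264147 to 5298455. Only 7860 bases separate Pon3 from Pon2, and 26905 bases separate Pon1 from Pon3. Each main transcript has 9 exons, and 8 of the 9 have the same coding length in all 3 genes. Intron 2 of Pon2, the site of the trap, spans 5277928 to 5289012 and is 11085 bases long. Upstream of it lie exons 1 and 2, with 315 of the 2409 mRNA bases (13.1%) and 145 of the 1062 coding bases (13.7%). The other 7 exons lie downstream. The deposited counts are totals per gene, so counts from the exons before the trap and after it cannot be told apart.

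**Figure D1:**
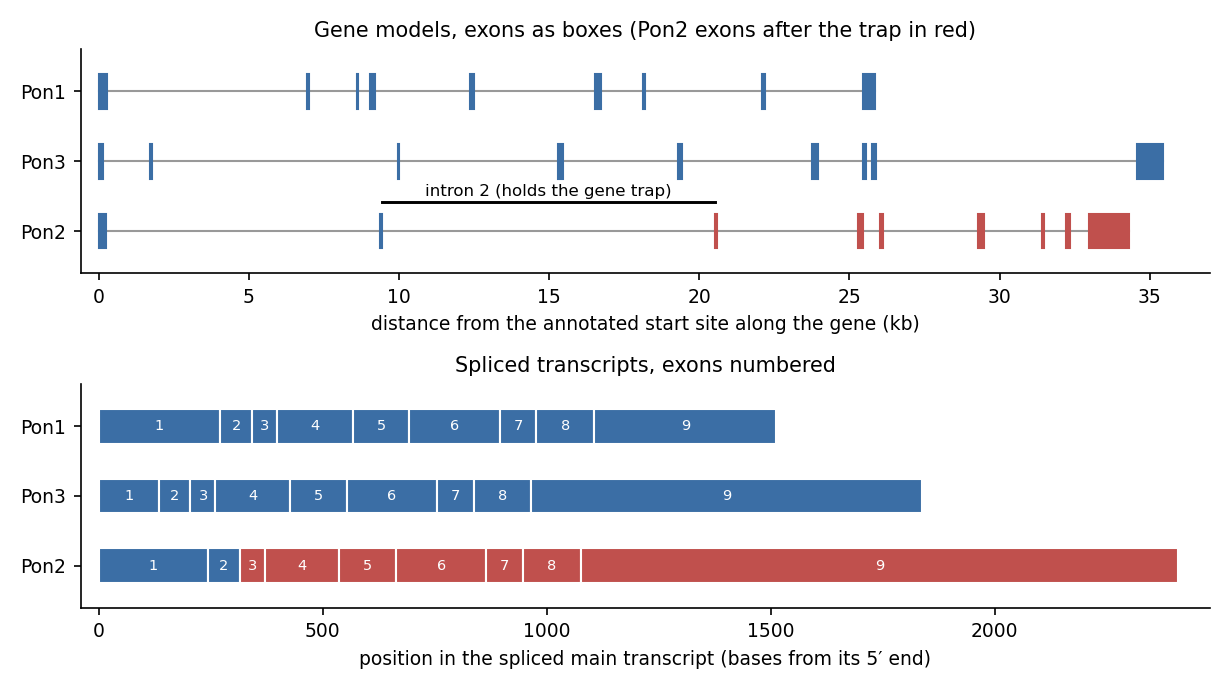
Top, the main transcript of each paraoxonase gene drawn from its annotated start site (x axis, kb), with exons as boxes to scale apart from a thin outline and introns as lines. Bottom, the same transcripts after splicing (x axis, bases from the 5′ end), with exons numbered. Exons of Pon2 downstream of the trapped intron are red and make up most of the 2409-base transcript.

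The junction of exons 2 and 3 is shown because the trapped intron of Pon2 sits exactly there, and because it lets the relatives be compared base by base. The sequences are coding strand, 5′ to 3′, read from the GENCODE M21 transcripts, with exon 2 in lower case and exon 3 in capitals. For Pon2 exon 2 lies at chr6:5289013-5289083 and exon 3 at chr6:5277872-5277927, for Pon3 at chr6:5254516-5254586 and chr6:5246278-5246333, and for Pon1 at chr6:5186934-5187004 and chr6:5185298-5185353.
Pon1: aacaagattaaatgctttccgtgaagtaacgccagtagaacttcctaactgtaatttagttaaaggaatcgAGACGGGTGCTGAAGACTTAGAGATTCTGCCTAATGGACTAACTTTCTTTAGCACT
Pon2: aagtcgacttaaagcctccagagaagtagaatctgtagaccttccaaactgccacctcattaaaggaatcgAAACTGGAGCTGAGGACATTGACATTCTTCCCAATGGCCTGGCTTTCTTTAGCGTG
Pon3: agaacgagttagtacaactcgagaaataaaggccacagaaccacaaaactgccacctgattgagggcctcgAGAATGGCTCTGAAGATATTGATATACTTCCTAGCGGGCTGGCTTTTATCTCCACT

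In these 127 bases Pon2 and Pon1 were identical at 89 positions (70.1%), Pon2 and Pon3 at 80 (63.0%), and Pon1 and Pon3 at 75 (59.1%). Over the coding bases of exons of equal length, identity was 65.8% for Pon2 and Pon3 (1062 bases), 65.6% for Pon1 and Pon2 (896 bases) and 62.3% for Pon1 and Pon3 (896 bases). The longest run shared by main transcripts was 23 bases for Pon1 and Pon2, 14 bases for Pon2 and Pon3 and 12 bases for Pon1 and Pon3. No run of 50 bases of Pon1 or Pon3 occurred in a transcript of any other gene. For Pon2, 827 of 7385 runs over all annotated transcripts did (11.2%), of which 631 were shared with Gm44424, a gene annotated inside Pon2 intron 2, and 181 with Fbxl14. In the main transcript of Pon2 alone this held for 14 of 2360 runs (0.593%). Reads from the shared stretches of the other Pon2 transcripts may be counted for another gene or dropped, and their number was not tested. No run of 50 bases was shared between the main transcripts of the 3 genes.

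The depth was 12967791 to 24228280 counts on genes per sample, with 13941 to 15656 genes detected. Spread between samples was large, with a common biological coefficient of variation of 99.2% over the genes tested by edgeR. Levels are given as CPM, that is counts per 1000000 counts of the library after TMM scaling, and tests of single genes used log2 CPM with a prior count of 2. All 8 HSC markers were detected, and their summed level was 1812 to 2433 CPM in WT and 1755 to 2356 CPM in Pon2-/- mice (exact permutation test, p = 0.781). Flt3, which encodes CD135 and was gated out, was at 4.59 to 49.3 CPM in WT and 26.7 to 65.0 CPM in Pon2-/- mice. In bulk samples such as these, fewer cells of a type and less RNA per cell cannot be told apart.

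Pon2, the targeted gene, was detected in every sample of both genotypes. In WT HSCs it ranged from 56.4 CPM (replicate 4, 721 counts) to 202 CPM (replicate 2, 3828 counts), with a median of 105 CPM and a mean of 112.7 ± 49.3 CPM (SD, n = 6). In Pon2-/- HSCs the counts of replicates 1 to 6 were 530, 658, 547, 477, 25 and 479. These are 31.7, 28.4, 31.1, 33.1, 1.16 and 28.8 CPM, with a mean of 25.7 ± 12.2 CPM (SD, n = 6). All Pon2-/- samples lay below all WT samples, and the lowest WT sample was 1.71 times the highest Pon2-/- sample. The labels of all 12 samples thus match the direction of the targeted gene.

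The Pon2-/- mean was 22.8% of the WT mean. This is RNA: the methods of the study state that very little Pon2 protein is left in these mice, and RNA counts do not measure protein. Mean log2 CPM fell by 2.54, and the exact two-sided permutation test gave p = 0.00216, the smallest p that 6 against 6 samples allow. The genotypes did not overlap in CPM in 0.633% of the 11848 genes tested. In the fit across all genes Pon2 had a log2 fold change of -2.13 (SE 0.57) and an unadjusted p of 0.00222, but its adjusted p was 0.586 (edgeR quasi-likelihood test, Benjamini-Hochberg), so it was not among the 0.203% of genes that passed an FDR of 0.05 and a 2-fold change. With DESeq2 the same gene was called, with a log2 fold change of -2.13 and an adjusted p of 0.0103, as were 1.79% of the 16998 genes with an adjusted p there. Without Pon2-/- replicate 5 edgeR called it too, with a log2 fold change of -1.88 and an adjusted p of 0.0295. Its adjusted p ran from 0.0103 to 1.00 over the 18 alternative fits.

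**Figure D2:**
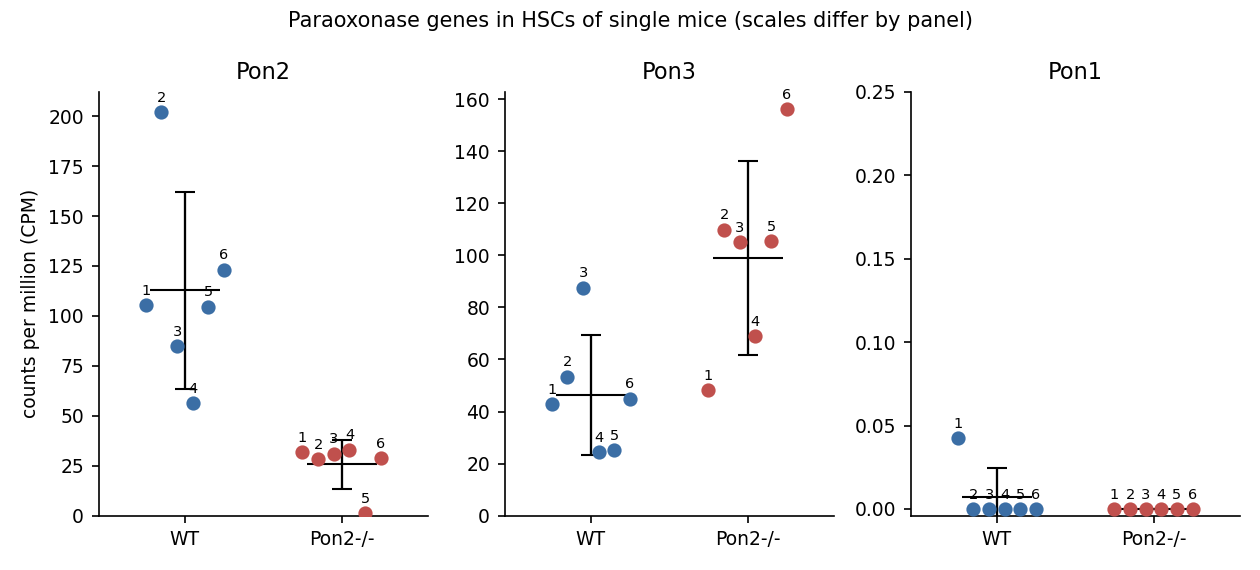
Levels of Pon2, Pon3 and Pon1 in CPM (y axes, linear, with a separate scale per panel) in HSCs of 6 WT and 6 Pon2-/- mice. Points are single mice with their replicate number, and horizontal lines with bars are the mean ± SD. For Pon2 the genotypes do not overlap, and Pon2-/- replicate 5 sits at 1.16 CPM while the other 5 sit between 28.4 and 33.1 CPM.

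Residual Pon2 counts differed sharply between replicate 5 and the other Pon2-/- samples. Each sample was 80 sorted cells of 1 mouse, so a difference between mice and one between sorted pools cannot be told apart. Replicate 5 had 25 counts among 21418796, or 1.17 per 1000000 with a 95% exact Clopper-Pearson interval of 0.755 to 1.72 that covers counting error only. This was 1.03% of the WT mean and 24.5 times below the next sample. The depth of replicate 5 was not low, its 15202 detected genes were the most of any Pon2-/- sample, and its HSC markers summed to 2081 CPM, within the range of the others. Its erythroid (0.833 CPM) and myeloid (830 CPM) marker sums were the lowest of the 12 samples, and its B cell sum (542 CPM) the highest. Its megakaryocyte, T cell and hepatocyte sums lay within the range of the others. Whether this is linked to its Pon2 level was not tested. The other 5 Pon2-/- samples lay at 30.6 ± 1.98 CPM (SD, n = 5), which is 27.1% of the WT mean. Their coefficient of variation was 6.48%. WT samples varied by 43.7% over all 6 mice and by 26.8% when the mouse farthest from the median was left out in the same way.

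Pon3 was higher in Pon2-/- than in WT HSCs. In WT it ranged from 24.4 CPM (replicate 4, 312 counts) to 87.6 CPM (replicate 3, 2171 counts), with a median of 43.9 CPM and a mean of 46.4 ± 23.2 CPM (SD, n = 6). In Pon2-/- mice the counts of replicates 1 to 6 were 808, 2547, 1846, 995, 2281 and 2598. These are 48.3, 109.9, 105.0, 69.0, 105.5 and 156.1 CPM, with a mean of 99.0 ± 37.2 CPM (SD, n = 6). The ranges overlapped: all 6 Pon2-/- samples were above the WT median, 5 were above the second highest WT sample (53.4 CPM) and 4 were above the highest.

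The ratio of the Pon3 means was 2.13, and mean log2 CPM was higher by 1.14 in Pon2-/- HSCs (exact two-sided permutation test, p = 0.0152). A p of 0.05 or less in this test was reached by 5.87% of the 11848 genes tested, so Pon3 was among a sizeable group of genes with such a value. Across all genes its log2 fold change was 1.09 (SE 0.36, unadjusted p 0.00956), with an adjusted p of 1.00 in edgeR and 0.107 in DESeq2, and it was not called in the main fit or in any of the 18 alternatives, whose adjusted p ran from 0.107 to 1.00. Leaving out each mouse in turn gave log2 differences of 0.98 to 1.35 with exact permutation p of 0.00649 to 0.0303. Pon2-/- replicate 5, with the least Pon2, had the third highest Pon3 of its group, and the sample with the lowest Pon3 of the group, replicate 1, had 31.7 CPM of Pon2.

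Pon1 was not detectable beyond a trace at this depth. WT replicate 1 held 1 count (0.0424 CPM), and the other 11 samples held 0 counts. The limit that a count of 0 allows (3 counts) was 0.121 to 0.235 CPM across the samples. Fisher's exact test on detection gave p = 1.0. Hepatocyte markers, a check for the main source of Pon1 and Pon3, were at 0 in all samples for 5 of 8 genes, Alb and Ttr included, and the whole list summed to 6.86 to 13.2 CPM in WT HSCs against 0.949 to 10.5 CPM in Pon2-/- HSCs (exact permutation test, p = 0.169).

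By mean level per kb, Pon2 came first in WT and Pon3 in Pon2-/- HSCs, but the order of the 2 in WT was not settled. A change of order was not tested. Per kb of the main transcript, WT HSCs held 46.8 ± 20.5 CPM of Pon2 and 25.2 ± 12.6 CPM of Pon3 (SD, n = 6), and Pon3 was above Pon2 in 1 of 6 mice, replicate 3. Pon2-/- HSCs held 10.7 ± 5.04 CPM per kb of Pon2 and 53.9 ± 20.3 CPM per kb of Pon3, and Pon3 was above Pon2 in 6 of 6 mice. The log2 ratio of Pon3 to Pon2 per base was -0.93 ± 0.75 in WT (exact sign-flip test, p = 0.0625), so that these neighbours in the order did not differ beyond their spread, and 2.78 ± 2.12 in Pon2-/- mice (p = 0.0312, the smallest that 6 exact sign flips allow). With the length of all annotated exons in place of the main transcript the WT ratio was -0.20 ± 0.75 (exact sign-flip test, p = 0.531), again with 1 of 6 mice above 0. The Pon2-/- ratio was then 3.50 ± 2.12. By rank, Pon2 was above 83.4% of tested genes in WT and 42.5% in Pon2-/- HSCs, while Pon3 was above 59.4% and 80.6%.

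Raw counts of Pon2 and Pon3 were compared too. The ratio of Pon3 to Pon2 counts was 0.239 to 1.03 in WT samples, with a median of 0.386. In Pon2-/- samples it was 1.52 to 91.2, with a median of 3.62. The groups did not overlap, and the value of 91.2 belonged to replicate 5. Pon2 is the denominator, and its levels alone did not overlap between genotypes. The ratio and the order above are therefore not results separate from the lower Pon2.

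The summed paraoxonase level did not differ beyond the spread between mice. It was 159.1 ± 57.7 CPM in WT HSCs against 124.7 ± 36.8 CPM in Pon2-/- HSCs (SD, 6 mice each). The log2 difference was -0.32 (exact two-sided permutation test, p = 0.29), and it was -0.50 to -0.17 when each mouse was left out in turn, with exact p of 0.0714 to 0.53. In mean level Pon2 was lower by 87.0 CPM and Pon3 higher by 52.6 CPM. A test that misses the threshold at this spread does not show that the sums were equal. The sum is not scaled for transcript length. It also includes the residual Pon2 counts, whose exons before and after the trap cannot be told apart, so it does not measure intact paraoxonase mRNA.

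**Figure D3:**
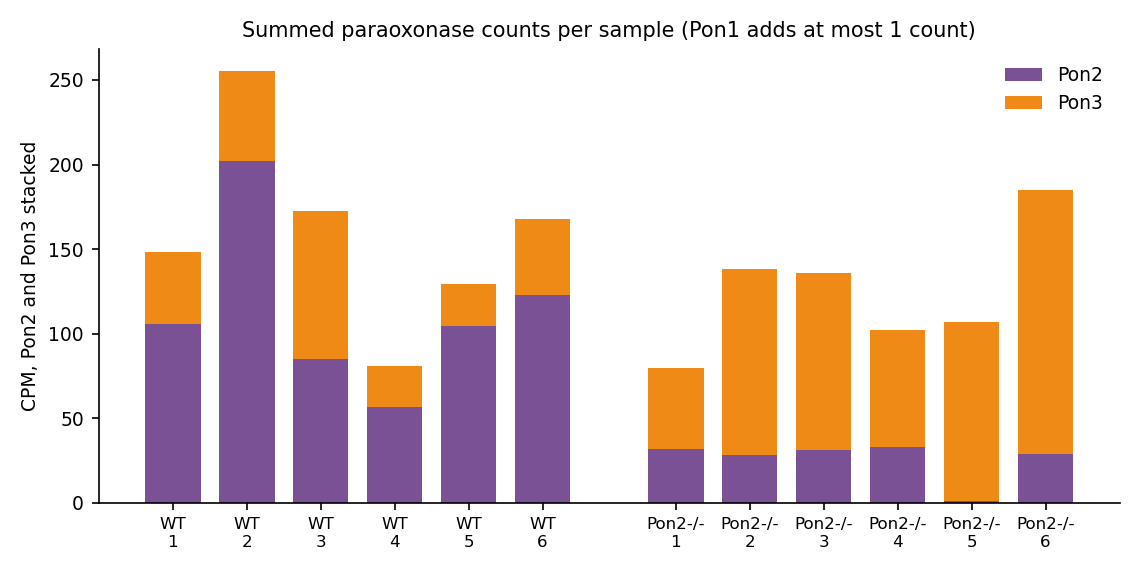
Stacked bars of Pon2 and Pon3 levels in CPM in each mouse (y axis, linear from 0). Pon2 fills most of the bar in 5 of 6 WT samples and Pon3 in 6 of 6 Pon2-/- samples, while the heights of the bars overlap between genotypes.

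The study design also allows the question of whether Pon3 was higher where less Pon2 was left. Since the genotypes form separate clusters, no r was computed over all levels. Within WT, Pearson's r of log2 CPM was 0.34 (exact permutation p = 0.521) and Spearman's rho 0.43 (p = 0.419, n = 6). Within Pon2-/-, r was -0.19 (exact permutation p = 0.642) and rho -0.71 (p = 0.136, n = 6). Neither relation passed, and no adjusted p over the 6 values was below 0.817.

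For deviations of the 12 samples from their genotype mean, r was -0.036 (permutation p = 0.892) and rho 0.014 (permutation p = 0.975). Without the pair of samples farthest from the Pon2 median, r was -0.59 in WT (replicates 2 and 4 left out, exact permutation p = 0.333), -0.76 in Pon2-/- (replicates 5 and 4 left out, exact permutation p = 0.208) and -0.165 for the deviations (permutation p = 0.659). The WT value turned negative without those samples and rested on few mice, since without replicate 3 alone it was 0.82 (exact permutation p = 0.0417) and without replicate 4 alone -0.089. Within a genotype no relation between the Pon2 and Pon3 levels was detectable with 6 mice.

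**Figure D4:**
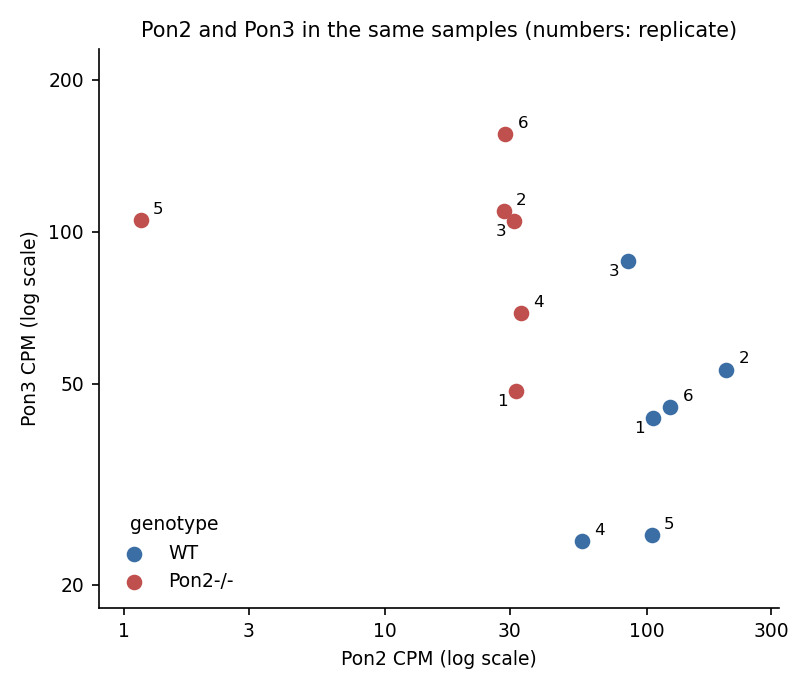
Pon2 (x axis) against Pon3 (y axis) in the same samples, both in CPM on log scales, with WT in blue, Pon2-/- in red and replicate numbers beside the points. The genotypes form separate clusters, and Pon2-/- replicate 5, at 1.16 CPM of Pon2, has a Pon3 level of 105.5 CPM inside the range of its group.

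By likeness of pattern, measured as Pearson's r of log2 CPM deviations from the genotype means over 12 samples, the genes closest to Pon2 among the 11848 tested were Zfp867 (r = 0.97), Il21r (0.94), Slc22a18 (0.93), Zkscan6 (0.93) and Adpgk (0.93). All 5 had their lowest Pon2-/- value in replicate 5, for example Zfp867 with 1.06 CPM against 27.6 to 66.1 CPM in the other 5 samples. Without replicate 5 their r was 0.78, 0.41, 0.70, 0.37 and 0.025 in the same order. The genes closest to Pon3 were Ccdc6 (r = 0.88), Gm10501 (0.88), Ebp (0.85), Tmem69 (0.84) and Mtrf1 (0.84), and without replicate 5 these were 0.83 to 0.89. Pon3 was number 5482 in likeness to Pon2. These values come from the same 12 libraries and are descriptions only.

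Some annotated genes overlap or adjoin the members, and reads in such a stretch can be lost to either gene. Gm44424 lies inside Pon2 intron 2 on the plus strand (5279655 to 5281480, chromosome 6) and held 126 counts in Pon2-/- replicate 4 and 0 in the other 11 samples. Gm44250 begins 365 bases past the 3′ end of Pon3 on the same strand (5216258 to 5220486). It held 162 counts over the WT samples and 1023 over the Pon2-/- samples, with 496 in replicate 4 and 462 in replicate 6. Its level was 1.57 ± 2.39 CPM in WT HSCs against 10.97 ± 15.7 CPM in Pon2-/- HSCs (SD, 6 mice each, exact permutation p = 0.288), and only 2 of the 6 Pon2-/- samples were above the highest WT sample. Both genes were chosen after their values were seen.

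The genes around the trap are a further comparison, since a mutated locus carries its flanks with it. Of 20 symbols listed as neighbours of Pon2, 19 were matched and 10 passed the count filter. With edgeR 0 of 10 were called in either direction (0.203% of all genes), and 0 had an unadjusted p under 0.05 (3.13% of all genes). Their median log2 fold change was -0.13, with a range of -0.49 to 1.87, beside -0.01 over all genes tested. Ppp1r9a, a neuronal actin-binding scaffold that lies next to Pon1, was at 87.6 ± 38.2 CPM in WT HSCs against 62.6 ± 28.8 CPM in Pon2-/- HSCs (SD, 6 mice each, exact permutation p = 0.29). Asb4, a ubiquitin ligase component, was detected in 2 of 6 samples of each genotype. Pdk4, a kinase that restrains pyruvate dehydrogenase, had 0 counts in WT and 6 in Pon2-/- samples.

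Apart from Asns and Col1a2, the log2 fold changes of the 10 tested neighbours of the list lay between -0.49 and 0.24, below that of Pon3. Asns, the asparagine synthetase gene, named after its value was seen, had one of 1.07 (SE 0.53), close to the 1.09 of Pon3. It was at 34.8 ± 24.9 CPM in WT and 73.1 ± 36.3 CPM in Pon2-/- mice, and did not pass the test (exact permutation p = 0.0779). The neighbours with the highest level had smaller log2 fold changes than Pon3. Sem1, a proteasome subunit, had a log2 fold change of -0.22 (SE 0.16). Gng11, a G protein subunit, had -0.17 (SE 0.19). Bet1, a vesicle transport SNARE, had 0.24 (SE 0.20). Among the 10, a log2 fold change above that of Pon3 was found for Col1a2 (1.87, SE 1.74), named after its value was seen. Col1a2 was at 5.05 ± 11.8 CPM in WT HSCs against 18.5 ± 21.1 CPM in Pon2-/- HSCs. Gm44250, which adjoins Pon3 and is not among the 10, also had a higher log2 fold change than Pon3 (2.80, SE 1.80).

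Other genes that handle superoxide and peroxides, the chemistry PON2 is known for, were measured in depth. Of 19 listed genes 17 passed the filter, 0 were called by edgeR and 0 had an unadjusted p under 0.05, with a median log2 fold change of 0.03. Over all genes tested the shares were 0.203% and 3.13%. A count of 0 in a list this short does not set it apart from all genes. Gpx1, the main cytosolic glutathione peroxidase, was at 1316 ± 271 CPM in WT HSCs against 1298 ± 373 CPM in Pon2-/- HSCs. Prdx6, a peroxiredoxin that reduces phospholipid peroxides, was at 789.8 ± 171 and 961 ± 326 CPM. Sod1, the cytosolic superoxide dismutase, was at 644.9 ± 139 and 596.9 ± 71.8 CPM. For these 3 genes the exact permutation p was 0.299 or more.

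NADPH oxidase subunits, which produce superoxide, were counted in the same way. Of 14 listed genes 8 passed the filter, with a median log2 fold change of -0.19. In edgeR 0 were called and 0 had an unadjusted p under 0.05, beside 0.203% and 3.13% of all genes. With 8 genes this too does not set the list apart from all genes. Rac2, the GTPase of the phagocyte oxidase, was at 866.7 ± 110 CPM in WT HSCs against 713.7 ± 187 CPM in Pon2-/- HSCs (SD, 6 mice each, exact permutation p = 0.0996). Cyba, the p22phox membrane subunit, was at 389.4 ± 55.6 and 361.5 ± 57.1 CPM. Rac1 was at 186.6 ± 74.9 and 198.7 ± 97.4 CPM.

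HDL partners are components and receptors of the lipoprotein with which PON1 is associated in blood. Of 10 listed genes 6 passed the filter. By edgeR 0 were called, while 2 had an unadjusted p under 0.05, beside 0.203% and 3.13% of all genes. All 6 had a log2 fold change below 0, with a median of -0.71 beside -0.01 over all genes tested. The whole list was not uniformly lower. Pla2g7, which failed the filter and was named after its value was seen, went the other way. Its counts were 23 (WT) and 808 (Pon2-/-), and its mean CPM 0.29 and 8.0 (exact permutation p = 0.139). Apoa2, which also failed the filter, had 156 (WT) and 0 (Pon2-/-) counts, and Apom and Lcat had none. Apoe, a lipoprotein ligand, was at 868.7 ± 202 CPM in WT HSCs against 690.9 ± 212 CPM in Pon2-/- HSCs (log2 fold change -0.33, SE 0.21). Abcg1, a cholesterol exporter to HDL, had a log2 fold change of -0.51 (SE 0.36), and Scarb1, the HDL receptor, had -0.75 (SE 0.85).

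The 2 genes with an unadjusted p under 0.05, named after their values were seen, were Clu and Apoa1. Clu, the chaperone clusterin, was at 30.2 ± 21.6 CPM in WT HSCs against 2.24 ± 2.6 CPM in Pon2-/- HSCs (log2 fold change -3.75, SE 1.56, unadjusted p 0.0308 in edgeR). Apoa1, the main HDL protein and also a gene of the hepatocyte list, was at 2.95 ± 2.17 and 0.259 ± 0.518 CPM (log2 fold change -3.46, SE 1.54, unadjusted p 0.0421 in edgeR). The adjusted p of both was 1.00.

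Other hydrolases of esters and lactones were mostly silent. Of 20 listed genes 12 had no counts in any sample and 3 passed the filter. With edgeR 0 of these were called and 0 had an unadjusted p under 0.05 (3.13% of all genes), and their median log2 fold change was 0.04. Esd, which hydrolyses S-formylglutathione, was at 202 ± 37.5 CPM in WT HSCs against 207.9 ± 63.8 CPM in Pon2-/- HSCs. Pter was at 34.3 ± 7.43 and 24.3 ± 23.7 CPM. Ces2g, a carboxylesterase, was at 8.35 ± 13.1 and 12.3 ± 13.9 CPM. In all, 0 of the 44 list genes that passed the filter were called by edgeR, where 0.203% of all genes were, and 0 were called by DESeq2, where 1.79% of all genes were.

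**Figure D5:**
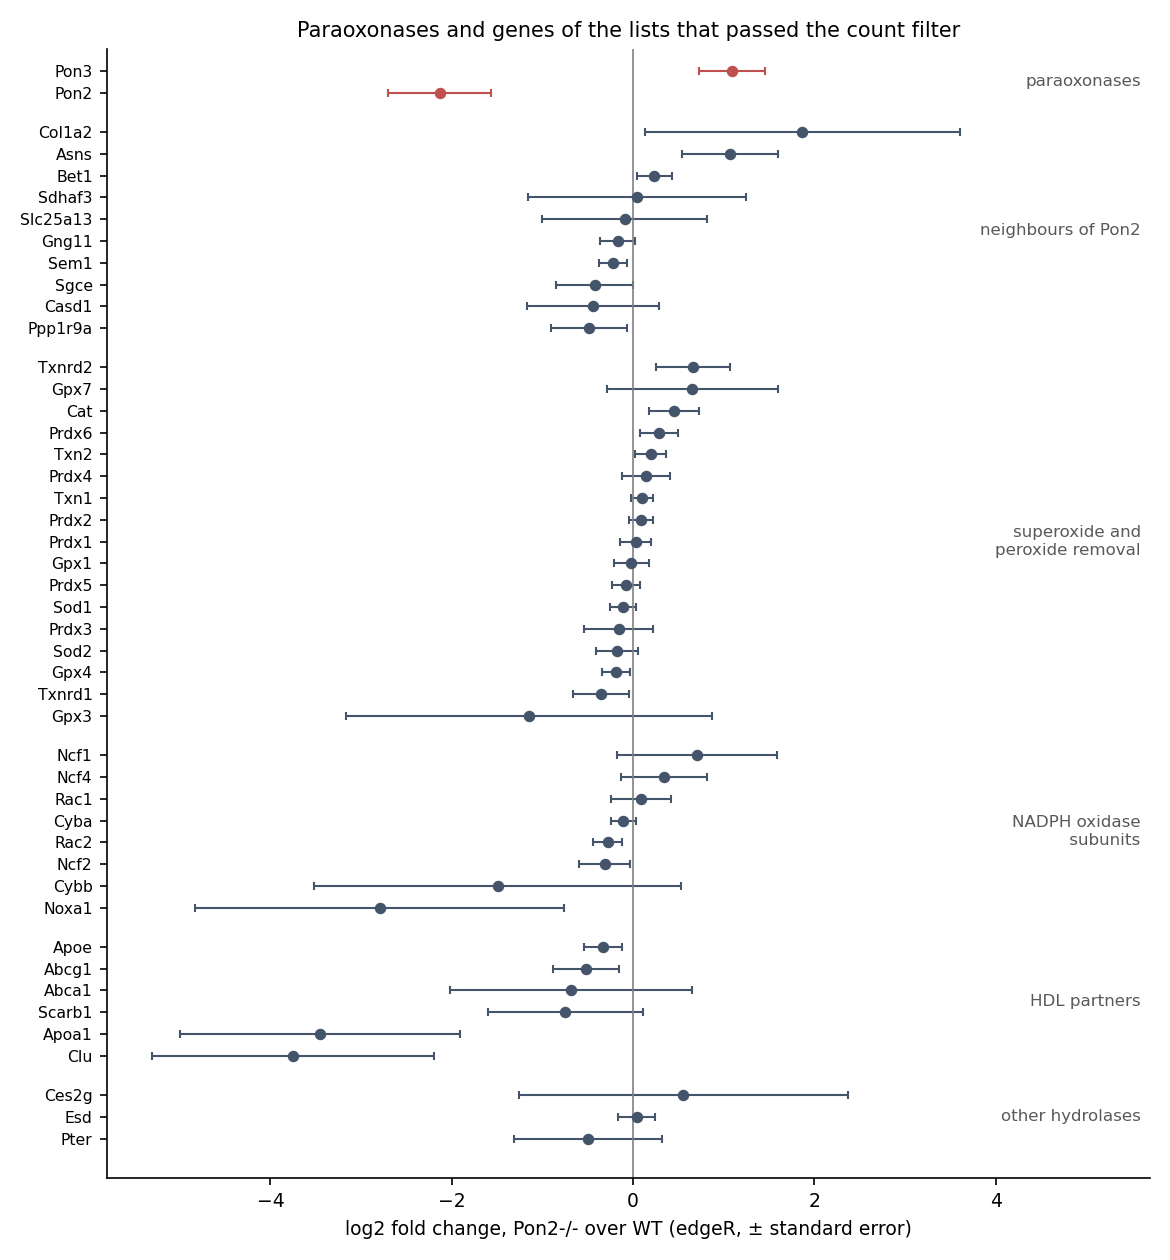
Log2 fold change of Pon2-/- over WT from edgeR (x axis, with bars for the standard error) for Pon2 and Pon3 in red and the 44 list genes that passed the count filter in grey, grouped by list. Pon2 at -2.13 and Pon3 at 1.09 stand at opposite sides of 0, and no gene in the plot passed the adjusted threshold in edgeR.

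Markers of other cell types were compared as a check. Erythroid markers summed to 9.16 to 51.1 CPM in WT HSCs against 0.833 to 25.3 CPM in Pon2-/- HSCs (exact permutation test, p = 0.0303, adjusted p = 0.242 over 8 lists), with Car1 at 0 in all samples. The lower sum was that of Hbb-bt, a beta globin gene, at 25.5 ± 13.2 CPM in WT and 0.193 ± 0.449 CPM in Pon2-/- mice. Its genotypes did not overlap in CPM, as in 0.633% of the 11848 genes tested (exact permutation p = 0.00216). In edgeR its adjusted p was 0.265. The cause was not tested. Without Hbb-bt the other 6 genes summed to 9.57 ± 10.7 CPM in WT and 12.3 ± 9.9 CPM in Pon2-/- mice (exact permutation p = 0.835), a comparison added after the values were seen. Klf1, an erythroid transcription factor, was at 0.544 ± 0.92 and 6.73 ± 9.07 CPM (exact permutation p = 0.145), and Hba-a1, an alpha globin gene, at 1.34 ± 1.47 and 1.23 ± 1.27 CPM. The other 7 lists had an exact permutation p of 0.123 or more. Myeloid markers spanned 878 to 9743 CPM in WT HSCs against 830 to 14833 CPM in Pon2-/- HSCs, megakaryocyte markers 173 to 238 and 107 to 266 CPM, B cell markers 25.5 to 319 and 58.8 to 542 CPM, and T cell markers 0 to 2.76 and 0 to 6.24 CPM with 3 of 6 genes at 0 in all samples. Gapdh (479.1 ± 82.5 and 492.6 ± 74.8 CPM) and Actb (5843 ± 766 and 5267 ± 854 CPM), the reference genes of the qRT-PCR of the study, had an exact permutation p of 0.755 and 0.225. Scaling Pon3 by these reference genes gave a log2 difference of 1.28 (exact permutation p = 0.0108) and scaling Pon2 by them -2.40.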

How the data were processed

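The deposited values are whole-number counts of reads per gene, made by the authors with STAR 2.5.3a after Trimmomatic 0.36 (submitters' processing notes) on GRCm38.p5 with an earlier GENCODE release than M21, without normalization, 1 table per mouse. The first count column of each table was used and taken as unstranded, since Smart-seq2 does not mark strand. Groups and replicate numbers came from the sample labels. Differential expression was fitted over all 11848 genes that passed filterByExpr with edgeR 4.0.16 in R 4.3.3 (TMM, glmQLFit, glmQLFTest, genotype as the only term). DESeq2 1.42.0 and limma 3.58.1 (voom) were alternatives. Single genes, the sum of the family and marker sums were compared by exact permutation over 924 relabellings, and p-values measure the spread between mice. Depth was 12967791 to 24228280 counts, and intervals and limits cover counting error only. Scaling, prior count, count filter, a replicate block and leaving out each mouse were tried. Gene models and transcript sequences were those of GENCODE M21. On simulated counts of 11445 genes with 200 changed, edgeR called 116 genes, 2 of them falsely, and recovered 31.3% of 4-fold, 62.7% of 16-fold and 77.3% of 64-fold changes. The family and the gene lists were chosen with earlier results of these data known. Named genes were the 3 members, Gapdh, Actb, Ppp1r9a, Asb4 and Pdk4, the 3 genes of each list with the highest mean CPM, any list gene called or without overlap, and the 5 genes most like Pon2 and Pon3.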

Additional observations from a re-analysis of the deposited data

Results flagged for a closer look

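In 66 groups of 6 samples the highest or lowest sample was compared with the rest by Dixon's criterion, and 4 stood apart. For normally distributed values the criterion flags about 1 in 20 groups, or 3.3. Genes with mostly 0 counts, such as Pon1 and Asb4, do not meet this. Slc22a18 was picked by its values in the same samples, so 3.3 is only a rough guide. Pon2 in Pon2-/- replicate 5 was at 1.16 CPM against 28.4 to 33.1 CPM in the other samples of the group. Pon1 in WT replicate 1 was at 0.0424 CPM, which is 1 count, against 0 in the other WT samples. Asb4 in WT replicate 6 was at 37.6 CPM against 0 to 0.528 CPM. Slc22a18 in Pon2-/- replicate 1 was at 70.04 CPM against 0 to 23.0 CPM.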

How the results depend on the processing

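The lower Pon2 and the higher Pon3 of Pon2-/- HSCs kept direction and side of the threshold in the exact permutation test under all 17 alternatives run for each, with log2 differences of -2.72 to -1.77 and 0.98 to 1.35 when each mouse was left out in turn. The edgeR call of Pon2 depended on the tool and on replicate 5 of Pon2-/-: its log2 fold change was -2.13 (adjusted p = 0.0103) with DESeq2, and -2.27 to -1.88 over the fits without 1 mouse, of which the fit without replicate 5 called it (adjusted p = 0.0295). The cause was not tested. The relation of Pon2 and Pon3 was not stable. In WT, leaving out each mouse gave r of -0.089 to 0.82, and leaving out the 2 samples farthest from the Pon2 median gave -0.59. For the deviations, leaving out each mouse gave -0.145 to 0.19, with r above 0 without WT replicate 3 (0.0086), Pon2-/- replicate 1 (0.079), replicate 4 (0.015) and replicate 5 (0.19). With the replicate block, Pon2 was lower in 6 of 6 and Pon3 higher in 6 of 6 number pairs (exact sign-flip p = 0.0312, the smallest possible), and the paraoxonase sum was higher in 2 of 6 (p = 0.219). In edgeR with the block neither gene was called (adjusted p = 1.00). Over the tested genes, log2 CPM deviations from the genotype means correlated at 0.00093 to 0.043 between samples of the same number. Samples of different numbers were not compared, so this does not decide whether the numbers are pairs. They are not stated to pair mice, and were not taken as pairs. No list gene was called by edgeR or under any of the 18 alternative fits. The depth of 12967791 counts or more left Pon1 at the limit of detection.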

Other observations

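The narrow spread of residual Pon2 was set beside that of other genes. In Pon2-/- samples 4285 tested genes had a mean level within 2-fold of that of Pon2. Over all 6 samples 23.0% of them had a lower coefficient of variation than Pon2 (47.3%, against a median of 64.9%). When the sample farthest from the median was left out for each gene, Pon2 came to 6.48% against a median of 51.0%, and 15 of the 4285 genes (0.35%) had a lower value. In WT samples, treated in the same way, Pon2 came to 26.8% against a median of 24.7% over 3402 genes, and 56.7% of them had a lower value. For Pon3 in Pon2-/- samples the value was 28.4% against a median of 27.0%. This comparison was chosen after the values were seen and is a description.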
